A study of Mus musculus with 4 samples.

Results

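The receptors for interleukin-2 (IL-2), IL-4, IL-7, IL-9, IL-15 and IL-21 share the common gamma chain, and their 8 genes were examined in NKT cells of the small intestinal lamina propria (SI-LP). The genes were taken by symbol from the deposited count table, where all 8 were found among 25239 genes: *Il2rg*, which encodes the shared chain, the beta chain gene *Il2rb*, and the genes of the chains that give each receptor its ligand, *Il2ra*, *Il4ra*, *Il7r*, *Il9r*, *Il15ra* and *Il21r*. They were measured by bulk RNA-seq in 4 libraries of a single condition. NKT cells are lipid-reactive T cells restricted by CD1d, and they were sorted from wild-type mice (genotype C57BL/6Jax in the labels) as TCRβ+ cells that bound a CD1d tetramer and were negative for B220, CD11b, CD11c and CD8. The methods describe young adult animals of both sexes that received an anti-ARTC2 nanobody shortly before the tissue was taken, and no other treatment is given for these samples. The 2 experiments contributed a pair of libraries each, replicates 3 and 4 in the first and replicates 1 and 2 in the second. The sample titles say only First or Second, and reading these words as experiments is an interpretation on which every contrast between them rests. The sources do not say whether a library holds the cells of 1 mouse or of several, so the spread between libraries may be partly technical. NKT cells of lymphoid organs were not analysed here, and the sole contrast that the labels allow, that between the experiments, shows how well the replicates repeat.

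Common gamma chain receptors signal through kinases bound to their tails: Jak3 sits on the gamma chain and Jak1 on the chain it pairs with. The kinases then activate STAT transcription factors, chiefly Stat5 downstream of IL-2, IL-7 and IL-15, Stat6 downstream of IL-4 and Stat3 downstream of IL-21. The beta and gamma chains together form a receptor for IL-15 or for IL-2, to which the alpha chains *Il15ra* and *Il2ra* add affinity, and the IL-15 alpha chain can also be held by a neighbouring cell that presents IL-15. IL-15 and IL-7 are known for sustaining NKT cells, with IL-15 especially needed by the T-bet-positive NKT1 subset.

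Total counts ran from 3882803 to 8732858 per library, and the 45S ribosomal RNA precursor *Rn45s* took between 7.36% and 28.1% of them. Marker genes of several cell types were read in the libraries. All 7 T cell markers and all 3 NKT cell markers (*Zbtb16*, *Tbx21* and *Klrb1c*) had more than 3 counts in each library. As 17 of 21 epithelial markers also passed this low bar, it shows detection and does not settle identity. Of the 5 markers of other T cells, *Cd8b1* had at most 1 count and *Cd8a* at most 12, in cells sorted as CD8-negative. *Foxp3* had at most 31 counts, *Ikzf2* 543 to 3278 and *Lrrc32* 36 to 206. Of the 4 innate lymphoid markers, *Il22* had 0 to 34 counts, *Il1rl1* 2 to 118, *Areg* 2 to 443 and *Klrg1* 13 to 177. The libraries stood apart in RNA of other cells. The 21 epithelial markers took 0.106% and 1.09% of the counts of replicates 1 and 2, and 0.0227% and 2.98% of those of replicates 3 and 4. The 6 plasma cell markers took 0.671% and 0.821% in replicates 1 and 2, against 0.000547% and 0.0261% in replicates 3 and 4. The share of the T cell markers was lowest where the epithelial share was high, at 0.111% in replicate 2 and 0.132% in replicate 4, against 0.245% in replicate 1 and 0.277% in replicate 3. Fewer NKT cells in a library and less NKT cell RNA per cell cannot be told apart in such bulk data. Values below are CPM, read counts relative to library size as scaled by edgeR's TMM factors, or TPM. TPM corrects for gene length and for the library's total with *Rn45s* included, without TMM factors. It is the scale used wherever genes are compared with each other.

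The shared chain and the beta chain dominated. *Il2rb* (chromosome 15, 78480549 to 78495066, GRCm38, 10 exons after merging of transcripts) had 2109, 443, 2869 and 1175 TPM in replicates 1 to 4, a mean of 1649 ± 1061 TPM (SD, n = 4). *Il2rg* (chromosome X, 101264385 to 101268255, 8 exons) had 2170.1, 678, 1313 and 419.8 TPM, with a mean of 1145 ± 780 TPM. Both genes were highest in replicates 1 and 3 and lower in replicates 2 and 4. Together they made up 74.3% to 85.6% of the summed TPM of the 8 genes in every library. Their mean percentiles by TPM were 98.95 and 98.8 among the 11689 genes tested, which had 10 or more counts in 2 or more libraries.

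*Il7r*, which encodes the alpha chain of the IL-7 receptor (chromosome 15, 9506159 to 9529876, 8 exons), came next with 580.4, 209, 408 and 102 TPM in replicates 1 to 4, a mean of 325 ± 212 TPM. It stood at percentile 94.5, and its order over the libraries was that of *Il2rg*. A group of 3 chain genes followed at closely spaced levels.

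*Il21r*, the ligand-binding chain for IL-21 (chromosome 7, 125603429 to 125633570, 9 exons), had 154, 46.0, 365 and 61.9 TPM, with a mean of 157 ± 147 TPM, or 87.3 TPM without replicate 3. *Il2ra*, the IL-2 alpha chain known as CD25 and induced on activated T cells (chromosome 2, 11642792 to 11693194, 8 exons), had 197, 84.3, 155 and 48.3 TPM, with a mean of 121 ± 67.5 TPM. *Il4ra*, which binds IL-4 and also forms part of the IL-13 receptor (chromosome 7, 125552271 to 125579474, 12 exons), had 140.1, 47.4, 189 and 37.4 TPM, with a mean of 103 ± 73.3 TPM. Replicates 1 and 3 were the higher libraries for each of these genes. *Il21r* was the least even among them, since replicate 3 held more than the other libraries. The mean percentiles of *Il21r*, *Il2ra* and *Il4ra* were 83.7, 85.5 and 79.7.

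*Il15ra*, the IL-15 alpha chain (chromosome 2, 11705293 to 11733985, 9 exons), was low, with 86, 16, 24 and 60 counts, or 17.7, 2.33, 6.52 and 18.4 TPM in replicates 1 to 4. It stood at percentile 34.7 on average and, unlike the other detected members, reached its highest level in replicate 4. *Il9r*, the IL-9 receptor chain (chromosome 11, 32188997 to 32200279, 9 exons), had 0 counts in replicates 1, 2 and 3 and 1 count in replicate 4, and did not pass the filter on low counts. At this depth 3 counts correspond to 0.405, 0.286, 0.534 and 0.604 TPM of *Il9r*, limits that cover counting error alone. Per length, *Il2rg* was at least 695-fold higher than *Il9r* in replicate 4 and at least 5364-fold higher in replicate 1. *Il9r* transcripts were therefore not detectable at this depth in 3 of 4 libraries.

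**Figure D1:**
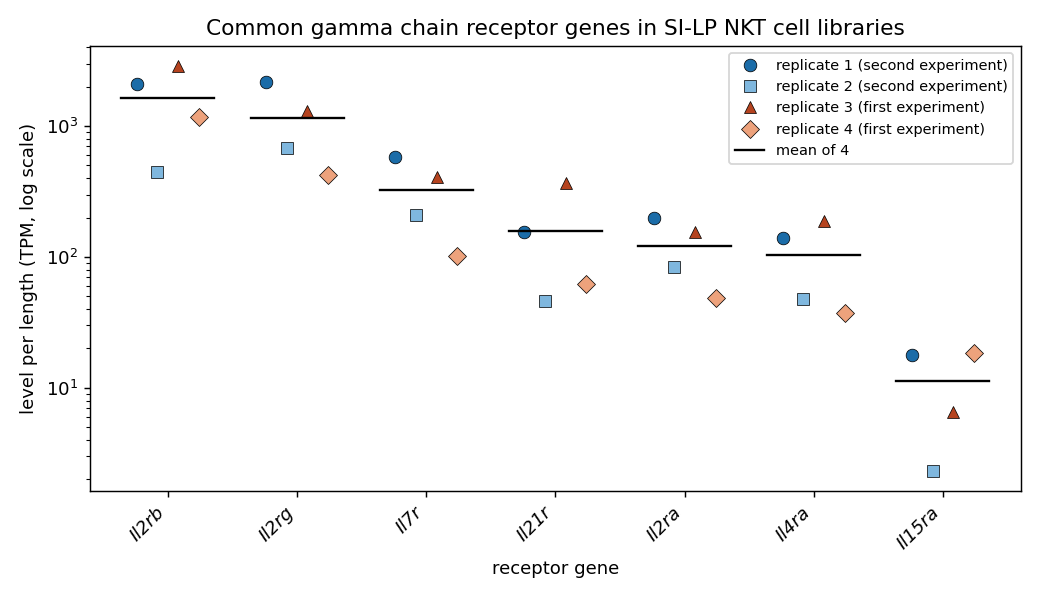
Level of each receptor gene in TPM on a log axis, with 1 point per library and a bar at the mean of 4; *Il9r*, with 1 count in all, is not drawn. *Il2rb* and *Il2rg* lie highest, *Il21r*, *Il2ra* and *Il4ra* overlap, and *Il15ra* lies lowest with replicate 4 at 18.4 TPM.

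Genes were ordered by mean TPM, and neighbours in that order were compared within the same 4 libraries. The pairs and their direction were thus taken from the values tested. *Il2rg* exceeded *Il7r* in 4 of 4 libraries, by 3.21-fold to 4.11-fold per length, *Il7r* exceeded *Il21r* in 4 of 4 by 1.12-fold to 4.54-fold, and *Il4ra* exceeded *Il15ra* in 4 of 4 by 2.03-fold to 29.0-fold. An exact two-sided sign-flip permutation test gave p = 0.125 for each of these pairs (adjusted p = 0.25 over 6 pairs), the smallest value that 4 libraries allow, so no pair could pass a threshold of 0.05. The other neighbours did not differ beyond their spread. *Il2rb* exceeded *Il2rg* in 2 of 4 libraries, with a mean log2 difference of 0.49 ± 0.98 (SD, n = 4), and *Il21r* exceeded *Il2ra* in 2 of 4, with 0.09 ± 0.91. *Il2ra* exceeded *Il4ra* in 3 of 4, with 0.35 ± 0.47. Without correction for length, *Il4ra* moved to position 4 and *Il21r* to position 6.

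Some of the genes are neighbours in the genome. *Il2ra* and *Il15ra* lie on the same strand of chromosome 2, 12098 bases apart with 0 annotated genes between them, and differed from 121 to 11.3 TPM in the mean. *Il4ra* and *Il21r* lie on the same strand of chromosome 7, 23954 bases apart and likewise without a gene between them, and had similar means. The exons of the 8 genes overlapped those of 0 other genes, which bears on counts made without strand.

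Between the experiments, 0 of the 7 receptor genes tested passed a Benjamini-Hochberg adjusted p of 0.05 in edgeR's quasi-likelihood fit, as was true of all genes (0.0% of 11689). At an unadjusted p under 0.05 there were 0 of 7, beside 2.12% of all genes. Counts were simulated with the same spread for every gene, the common value estimated from these libraries, and not with each gene's own. The test recovered none of the changes put into them, so the absence of calls does not show that the experiments were alike. The log2 fold changes of the second against the first experiment ran from -1.39 (standard error 0.99) for *Il21r* to 0.42 (0.87) for *Il2rg*, each with an adjusted p of 0.9997, and the median of the 7 was -0.57 beside 0.03 over all genes tested. For *Il21r* the libraries had 134 and 38.9 CPM in the second experiment and 388 and 65.0 CPM in the first. For *Il2rb* they had 1897 and 388 CPM in the second and 3156 and 1275 CPM in the first. In both genes the replicates of one experiment lay further apart than the experiments did, and the experiments overlapped, as they did in CPM for all 7 genes, while 14.4% of all genes were lower and 14.7% higher in both libraries of the second experiment. Leaving out 1 replicate turned the direction of 6 of the 7 fold changes, all but that of *Il2rb*.

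The libraries of one experiment differed more. On the log2 CPM scale, the difference of replicate 2 from replicate 1 and that of replicate 4 from replicate 3 were -1.72 and -1.66 for *Il2rg*, -1.27 and -1.70 for *Il2ra* and -1.52 and -2.02 for *Il7r*. They were -1.600 and -2.35 for *Il4ra*, -1.78 and -2.57 for *Il21r* and -2.29 and -1.31 for *Il2rb*. These 6 of 7 genes were lower in both comparisons, as were 30.1% of all genes tested, and each by more than 1 log2 unit, as were 8.21% of all genes. None of the 7 was higher in both (35.2% of all genes), and the median difference over all genes was 0.13 and 0.07. The differences of *Il15ra* were -2.74 and 1.43. The summed T cell markers moved with the 6 genes, at 2459 and 928 CPM in the second experiment and 3402 and 1284 CPM in the first. Most of this sum was *Cd3e*, at 1840, 614, 2092 and 852 CPM in replicates 1 to 4. Each T cell marker was lower in replicate 2 than 1 and in replicate 4 than 3, but *Cd3d* only slightly in the former, at 87.6 and 82.2 CPM. The summed epithelial markers were higher in replicates 2 and 4.

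Each chain was divided by *Il2rg* within its library, both per length, which makes the value independent of library size. The ratio of *Il2ra* to *Il2rg* was 0.0909, 0.124, 0.118 and 0.115 in replicates 1 to 4. That of *Il7r* was 0.267, 0.308, 0.311 and 0.243. Both chains kept nearly the same proportion to the shared chain in every library, with the highest ratio 1.37-fold and 1.28-fold above the lowest, although the CPM of *Il2rg* itself differed 4.29-fold.

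The ratio of *Il2rb* to *Il2rg* was 0.972 in replicate 1, 0.654 in replicate 2, 2.19 in replicate 3 and 2.80 in replicate 4. *Il2rb* was thus below *Il2rg* in the second experiment and above it in the first, with a gap of 2.25-fold between the nearest libraries. The ratio of *Il21r* was 0.0709 and 0.0678 in the second experiment and 0.278 and 0.148 in the first, with a gap of 2.08-fold. The ratio of *Il4ra* was 0.0646 and 0.0699 in the second and 0.144 and 0.0890 in the first, with a gap of 1.27-fold. The experiments did not overlap for these 3 of 6 chains, in each case with lower ratios in the second, a pattern shown by 15.3% of all genes tested, and 0 of 6 chains had higher ratios in the second experiment (4.14% of all genes). With 2 libraries in each experiment no exact test can reach 0.05, so this split is a description.

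**Figure D2:**
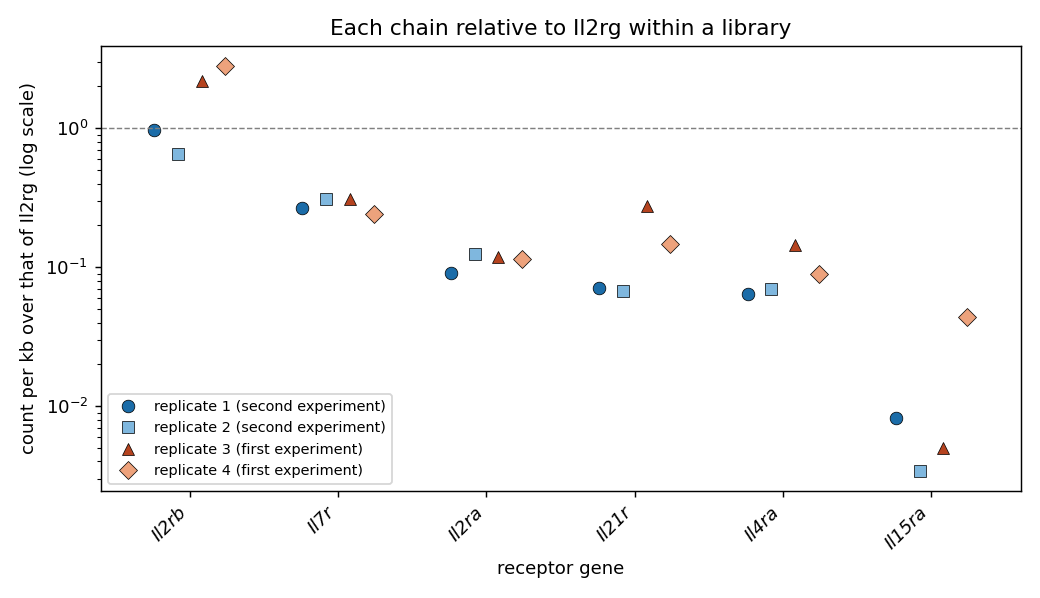
Count per kb of each chain divided by that of *Il2rg* in the same library, on a log axis, with 1 point per library and a dashed line at equality. *Il7r* and *Il2ra* form tight rows, *Il2rb* lies at 2.19 and 2.80 in the first experiment and at 0.972 and 0.654 in the second, and replicate 4 stands apart for *Il15ra*.

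The receptor genes were also scaled, per length, to the geometric mean of the 7 T cell markers. *Il2rg* was at 3.39 and 2.96 log2 units above the markers in the second experiment and at 1.95 and 1.93 in the first. *Il7r* was at 1.49 and 1.26 against 0.27 and -0.11, and *Il2ra* at -0.07 and -0.05 against -1.13 and -1.19. These 3 of 7 genes were higher in both libraries of the second experiment, a pattern shown by 23.8% of all genes tested, so their share is to be read against that background. *Il2rb* overlapped between the experiments, at 3.35 and 2.34 against 3.08 and 3.41, as did *Il21r*, *Il4ra* and *Il15ra*, and 0 of 7 were lower in both libraries of the second experiment (3.88% of all genes). With *Cd3e* alone as the reference, *Il2rg*, *Il7r* and *Il2ra* were again higher in the second experiment (13.6% of all genes), while *Il2rb* and *Il21r* were lower in it (7.57% of all genes).

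Relative to the T cell markers most of the spread of these genes was smaller than in CPM. The distance from the lowest to the highest library was 1.07 log2 units for *Il2rb*, in place of 3.03 in CPM, 1.03 in place of 3.32 for *Il21r*, and 1.002 in place of 2.36 for *Il4ra*. It was 1.47 in place of 2.10 for *Il2rg*, 1.601 in place of 2.24 for *Il7r* and 1.14 in place of 1.76 for *Il2ra*. *Il15ra* kept almost all of its spread, with 3.12 in place of 3.29. Plasma cell markers moved with the experiment, with summed levels of 6741 and 6854 CPM in the second experiment against 6.72 and 253 CPM in the first. In CPM, 6 of 6 of them were higher in both libraries of the second experiment, as were 14.7% of all genes. The part of plasma cells in the higher *Il2rg*, *Il7r* and *Il2ra* ratios was not tested. B cell markers were lower than plasma cell markers, but their summed level was also higher in the second experiment. It was 61.2 and 52.3 CPM there against 1.12 and 0.750 CPM in the first. The part of B cells in these ratios was not tested either.

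**Figure D3:**
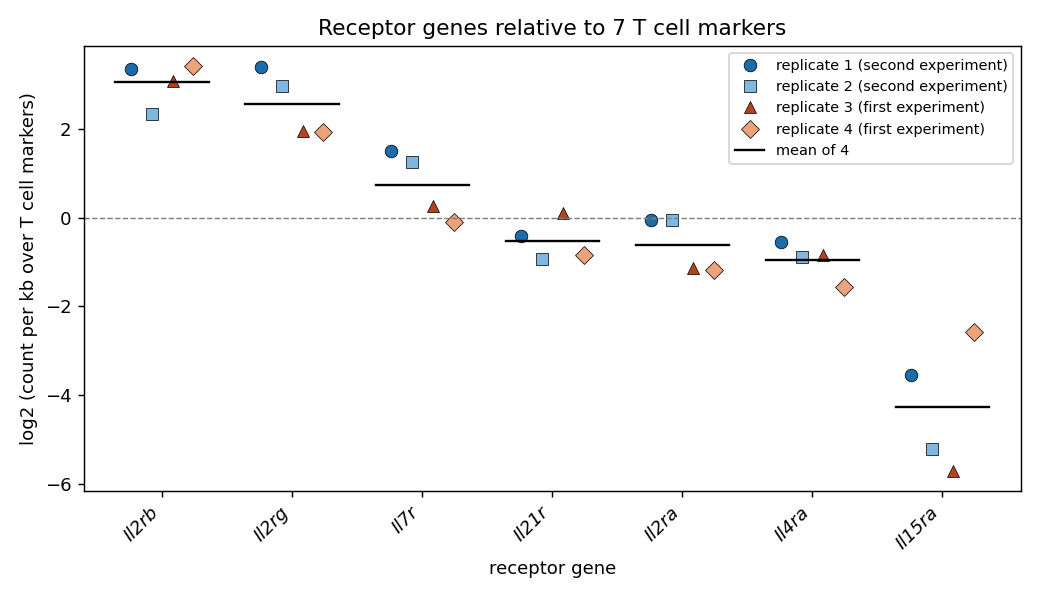
Log2 of each receptor gene's count per kb over the geometric mean of 7 T cell markers, with 1 point per library and a bar at the mean of 4. *Il2rg*, *Il7r* and *Il2ra* lie higher in both libraries of the second experiment, and *Il15ra* spans 3.12 log2 units.

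*Il15ra* differed from the other chains in its course over the libraries. Its ratio to *Il2rg* was 0.00816, 0.00344 and 0.00497 in replicates 1 to 3 and 0.0439 in replicate 4, which is 12.8-fold from lowest to highest. In replicate 4 the summed epithelial markers were highest at 28962 CPM, of which *Lyz1* alone made 21072 CPM. Some other epithelial markers were highest in replicate 4, such as *Olfm4*, and some in replicate 2, such as *Muc2*. The 8 myeloid markers summed to 143 CPM in replicate 4, against 23.97 to 66.0 CPM in the other libraries. The share of epithelial or myeloid RNA in the *Il15ra* counts was not tested. Replicate 2, with 9136 CPM of epithelial markers, had the lowest *Il15ra* level of all, at 1.53 CPM.

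The likeness of the genes' courses was measured as the root mean square distance of their centred log2 CPM over the 4 libraries, a description in which all genes share the same 4 libraries and their sizes. *Il2rg* and *Il7r* were the closest pair of members at 0.15, followed by *Il2ra* and *Il7r* at 0.17 and *Il2ra* and *Il2rg* at 0.17. Only 0.18% of the genes tested lay nearer to *Il2rg* than *Il7r* did. *Il2rb* lay nearest to *Il21r*, at 0.49, and was 0.85 from *Il2rg*. Among all genes, the nearest were *Cnot6* to *Il2ra* (0.04), *Gm1966* to *Il2rg* (0.05), *Map4k1* to *Il7r* (0.06), *Slc25a23* to *Il4ra* (0.04), *Gm16364* and *Laptm5* to *Il2rb* (0.11 each), *Runx3* to *Il21r* (0.13) and *Btbd2* to *Il15ra* (0.11). Between 6 genes for *Il15ra* and 179 genes for *Il2ra* lay within 0.25, so a near neighbour over 4 libraries is common.

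The 3 members with the closest courses are shown by the 250 bases before their start sites, from RefSeq windows on GRCm38.p6, 5′ to 3′ on the gene's strand. Capitals mark matches, on either strand, to TTCNNNGAA (the core of STAT sites), CCGGAAG or CAGGAAG (ETS sites) and TGTGGT (RUNX sites), and the marked matches do not overlap each other.
*Il2rg*, chrX:101268256-101268505, minus strand: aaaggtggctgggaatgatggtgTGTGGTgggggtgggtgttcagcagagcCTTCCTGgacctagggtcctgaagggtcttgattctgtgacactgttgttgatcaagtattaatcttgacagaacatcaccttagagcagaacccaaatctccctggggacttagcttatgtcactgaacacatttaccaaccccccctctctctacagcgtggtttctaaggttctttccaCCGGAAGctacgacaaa
*Il7r*, chr15:9529877-9530126, minus strand: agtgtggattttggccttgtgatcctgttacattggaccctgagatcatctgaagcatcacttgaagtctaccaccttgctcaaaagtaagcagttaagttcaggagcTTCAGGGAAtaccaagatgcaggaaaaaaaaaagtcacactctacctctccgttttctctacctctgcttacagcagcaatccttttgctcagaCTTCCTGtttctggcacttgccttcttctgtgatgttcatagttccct
*Il2ra*, chr2:11642542-11642791, plus strand: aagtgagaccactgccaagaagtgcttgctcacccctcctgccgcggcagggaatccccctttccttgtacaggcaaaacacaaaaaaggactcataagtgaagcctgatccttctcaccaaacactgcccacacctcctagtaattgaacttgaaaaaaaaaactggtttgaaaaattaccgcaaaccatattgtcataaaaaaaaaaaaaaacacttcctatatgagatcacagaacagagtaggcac
RefSeq windows were matched for 7 of the 8 genes, with 2 for *Il15ra*; *Il2rb* had none. The window of *Il7r* held a TTCNNNGAA match, found in 7.02% of all 32851 windows of this length, and a match to CAGGAAG close to the start site, found in 10.8%. That of *Il2rg* held CCGGAAG next to the start site (6.91% of windows), CAGGAAG and TGTGGT (14.0%). The letters searched, which also included the T-box motif TCACACC (3.33%), were not in the window of *Il2ra*. A match describes these letters and is not a binding site, and its absence from so short a window says nothing of the factor.

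Genes upstream and downstream of the receptors were taken from lists of 31 genes in all, each of which were in the table and 24 of which passed the filter. By edgeR's test 0 of the 24 passed an adjusted p of 0.05 for the contrast of experiments in either direction, and 2 passed at an unadjusted p under 0.05, *Crlf2* and *Socs1*, beside 2.12% of all genes. Of the 6 cytokine ligands, *Il4* had 159, 24.8, 153 and 78.1 TPM in replicates 1 to 4. *Il2* and *Il9* had 0 counts in each library, *Il21* had 1 count in replicate 1, and *Il15* had 4, 0, 3 and 0 counts. *Il7*, a product of epithelial and stromal cells, had 66 counts in replicate 2 and at most 3 in the other libraries. Of the ligands, *Il4* alone had more than 3 counts in all 4 libraries.

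The related chains were uneven. *Crlf2*, which pairs with the IL-7 receptor alpha chain to bind TSLP, had 5 and 8 counts in the second experiment and 48 and 72 counts in the first. *Il13ra1*, which pairs with *Il4ra* in the receptor for IL-4 and IL-13 used by cells outside the lymphoid lineage, had 45 counts in replicate 1, 1703 in replicate 2, 0 in replicate 3 and 64 in replicate 4. Its higher library in each experiment was the one with the higher epithelial share. Replicate 4 had the highest epithelial share of all and fewer *Il13ra1* counts than replicate 2. Most of that share was *Lyz1*, at 21072 of 28962 CPM. The other epithelial markers went both ways between replicates 2 and 4, with *Epcam* at 659 and 439 CPM and *Olfm4* at 651 and 869 CPM. The part of epithelial RNA in the *Il13ra1* counts was not tested. *Il13ra2* had 0 counts throughout.

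Of the kinases, *Jak1* had 581, 292, 384 and 213 TPM in replicates 1 to 4, and *Jak3* had 37.5, 3.68, 65.7 and 29.8 TPM. *Jak1* exceeded *Jak3* by 5.85-fold to 79.4-fold per length in 4 of 4 libraries. *Jak3*, whose product binds the shared chain, was at 0.00543 to 0.0710 of the level of *Il2rg*, highest in replicate 4 and lowest in replicate 2. Of the STAT genes named above, *Stat3* had 158 ± 29.2 TPM (SD, n = 4), followed by *Stat6* at 79.8 ± 22.7 TPM, *Stat5b* at 58.8 ± 25.8 TPM and *Stat5a* at 43.4 ± 21.3 TPM. The ranges of *Stat5a*, *Stat5b* and *Stat6* overlapped.

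Feedback inhibitors that cytokine signals induce were present at unequal levels. *Cish* had 97.9, 31.97, 123 and 43.1 TPM in replicates 1 to 4 and *Socs2* 175, 68.0, 187 and 101 TPM, both highest in replicates 1 and 3. *Socs3* was lower, at 22.2 ± 8.83 TPM. *Socs1* had 0 counts in both libraries of the second experiment and 16 and 23 counts in replicates 3 and 4 of the first. Among the targets, the survival gene *Mcl1* had 369 ± 151 TPM, the kinase gene *Pim1* 362 ± 179 TPM, the cyclin gene *Ccnd2* 461 ± 206 TPM and *Bcl2* 149 ± 94.0 TPM, with 286, 97.9, 132 and 79.2 TPM in replicates 1 to 4. Of the 10 genes of this list, *Osm* did not pass the filter, with at most 9 counts. The median percentile by TPM was 76.2 over the 24 genes and 85.5 over the 7 receptor genes.

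**Figure D4:**
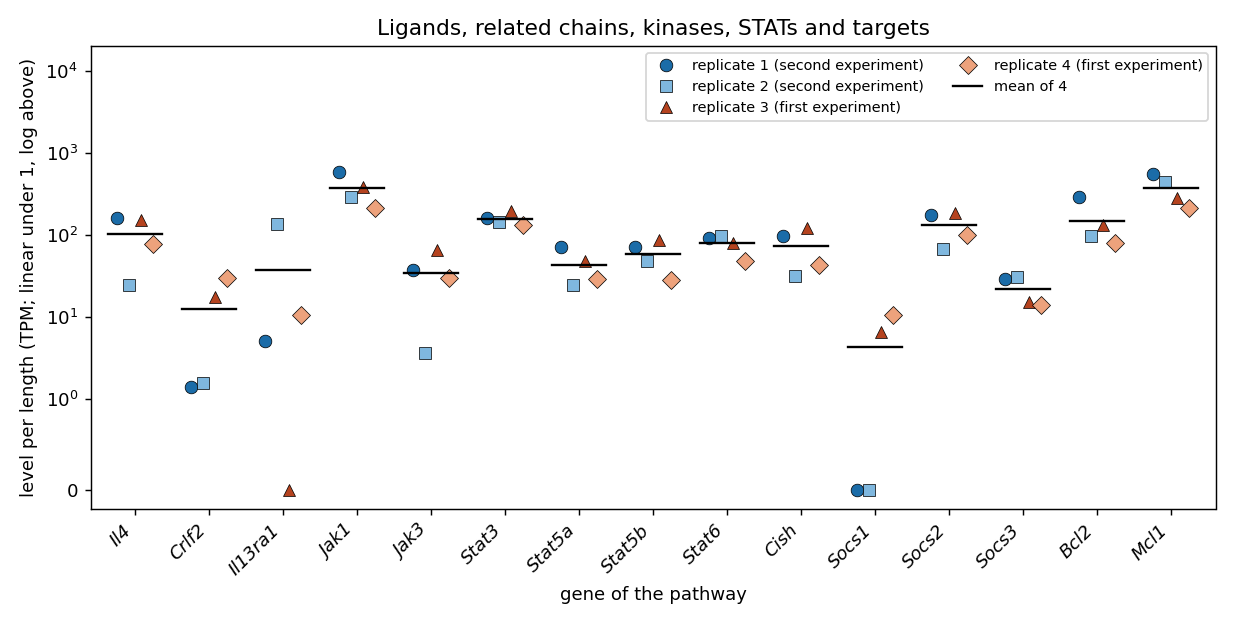
Level in TPM of ligand, related chain, kinase, STAT, inhibitor and survival genes, linear under 1 and on a log scale above, with 1 point per library and a bar at the mean of 4. *Jak1* lies above *Jak3* in every library, and *Socs1* is at 0 in both libraries of the second experiment.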

How the data were processed

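Sorted SI-LP NKT cells of WT mice were measured by RNA-seq in 4 libraries of 1 condition, from 2 experiments as the words First and Second in the titles were read. The authors deposited raw counts of read pairs per gene, aligned with HISAT2 (methods) and assigned to exons by featureCounts 1.6.4 from primary alignments without regard to strand (header). The methods name GRCm39, the header an mm10 annotation and the submitters' processing notes GRCm38.p6; positions follow the deposited table, whose start sites match those of the RefSeq windows shown, on GRCm38.p6. The same notes also list RSEM and Bowtie2. The gene lengths deposited by the authors were used for TPM. The table held 6 library columns, and the 2 that match no label were not used.

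CPM was computed with TMM factors over the 11689 genes reaching 10 counts in 2 or more libraries. The experiments were compared on these genes by edgeR's quasi-likelihood method (p-values adjusted after Benjamini and Hochberg). On data simulated with 1 dispersion for all genes, it recovered most or all of the added changes at a low dispersion. It recovered none at the common dispersion estimated from these libraries. Log2 CPM used a prior count of 2. Totals of 3882803 to 8732858 counts set the smallest visible level, 3 counts, at 0.287 to 0.750 CPM; this floor covers counting error alone. The members and gene lists were chosen with earlier results of these data known. Named genes were the 8 receptor genes, the listed pathway and marker genes and, for each member tested, the nearest genes by course; some listed genes are not reported here. The alternatives were DESeq2, other scalings and filters, other references for the ratios and leaving out each replicate; taking replicates 1 and 3 alone was chosen after seeing the data. Fits used edgeR 4.0.16 with limma 3.58.1 and, as the alternative, DESeq2 1.42.0, under R 4.3.3. Other values and plots were made in Python 3.11.15 with scipy 1.17.1, pandas 2.3.3, matplotlib 3.10.9 and numpy 2.4.6.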

Additional observations from a re-analysis of the deposited data

Results flagged for a closer look

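In groups of 4 libraries, a library was singled out where its gap to the nearest other, divided by the whole range, exceeded Dixon's 95% critical value. Of 45 groups examined 4 did so, where chance at 1 in 20 would give 2.25. The ratio of *Il15ra* to *Il2rg* had a gap of 0.883, with replicate 4 at 0.0439 above the other libraries. The CPM of *Il9r* had a gap equal to the whole range (1), which is the single count of replicate 4. Such a gap is fixed wherever only 1 library has counts, so this flag cannot be set against the number that chance would give. The CPM of *Il13ra1* had a gap of 0.902, with replicate 2 at 163 CPM above the others. The CPM of *Stat6* had a gap of 0.867, with replicate 4 at 73.0 CPM below the others, which lay between 118 and 125 CPM.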

How the results depend on the processing

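Between the experiments the number of all genes called was 0 with edgeR, 41 with DESeq2 and 60 without a filter on low counts. It ranged from 0 to 7 when 1 replicate was left out, with 7 calls without replicate 3 and 6 without replicate 4. The receptor genes' log2 fold changes kept their direction under the other settings, but over the fits that left out 1 replicate they ranged from -0.55 to 1.24 for *Il2ra*, from -0.63 to 1.46 for *Il2rg*, from -0.57 to 1.65 for *Il7r*, from -1.53 to 1.03 for *Il4ra*, from -2.70 to 0.31 for *Il15ra* and from -2.49 to 0.39 for *Il21r*. *Il2rb* stayed negative, from -2.47 to -0.18. As FPKM scaled with TMM, a change of unit and scaling, all members had lower values. Examples were 44.0 for *Il2ra* in place of 121 TPM, 412 for *Il2rg* in place of 1145 and 623 for *Il2rb* in place of 1649. With CPM in place of TPM, *Il4ra* took rank 4 and *Il21r* rank 6. Over the fits that left out 1 replicate, the rank of *Il2ra* ranged from 4 to 5 and that of *Il21r* from 4 to 5, exchanging without replicate 3. Without correction for length, the median ratio to *Il2rg* was 0.311 for *Il2ra*, 0.249 for *Il4ra* and 0.555 for *Il7r*. With *Cd3e* alone in place of 7 T cell markers the mean log2 ratios were -4.41 for *Il2ra*, -0.75 for *Il2rb*, -1.24 for *Il2rg*, -4.76 for *Il4ra*, -3.07 for *Il7r*, -8.06 for *Il15ra* and -4.32 for *Il21r*, a shift that is the same for every gene by construction. With library size alone the mean difference between the libraries of an experiment was smaller for all 7 genes, at -1.39 in place of -1.69 log2 units for *Il2rg*, -1.18 in place of -1.48 for *Il2ra* and -1.50 in place of -1.80 for *Il2rb*, which follows from the scaling factors shared by all genes. Except for the changes of unit, scaling, reference and length, the cause of these changes was not tested. Depth limits *Il9r*, with 1 count in all, and *Il15ra*, with 16 to 86 counts. No paired analysis was possible because the labels define a single condition.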
